A study of Mus musculus with 6 samples.

Results

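The Hes and Hey repressor genes are described here through the accessible chromatin around them in neural stem and progenitor cells (NSPCs). A region was assigned to 1 of the 8 genes (Hes1, Hes3, Hes5, Hes6, Hes7, Hey1, Hey2 and Heyl) when the strongest summit of that region lay nearest to a transcription start site (TSS) of that gene among all protein-coding genes, and at most 50 kb from it. This rule found 81 of 190365 regions, 45 of the 82885 listed for parent NSPCs and 36 of the 107480 listed for NSPCs without the enhancer cluster. After overlapping intervals of both genotypes were joined, 57 separate regions remained.

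ATAC-seq, in which a transposase inserts sequencing adapters into open DNA, was carried out on 3 cultures of each genotype to ask how loss of the Sox2 enhancer cluster SRR2-18 alters accessible chromatin. Every culture was of neural stem/progenitor cells differentiated from embryonic stem cells (ESCs) of a 129S1/Cast F1 Hybrid, kept with EGF and bFGF, and every culture carried an mCherry reporter at the Sox2 gene of the 129S1 allele. Parent cultures (Clone 5B) had no deletion, and the deletion cultures (Clone 47D) had lost SRR2-18 from both alleles after Cas9 cutting in the ESCs. Each genotype was thus 1 clone, so a difference between the genotypes and a difference between the clones cannot be told apart. The authors pooled the cultures of a genotype into 1 peak list, so no error between cultures could be computed and no test was made. The deletion list rests on fewer reads, with a genome-wide mean background of 19.7 reads against 38.8 in the parent list. All 7 NSPC markers examined (Nes, Vim, Fabp7, Slc1a3, Sox1, Sox3 and Msi1) had a promoter region in both lists. Of 21860 protein-coding genes, 12340 had one in both. Of 5 neuron markers, 3 had one in the parent list and 4 in the deletion list. In each list, 1 of 4 oligodendrocyte, 1 of 4 astrocyte and 1 of 4 ESC markers had one. Of 3 immune markers, 1 had one in the parent and 0 in the deletion list, and of 3 endothelial markers, 0 and 1.

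HES and HEY proteins are basic helix-loop-helix-Orange repressors and the best known direct targets of Notch signalling. When a ligand on a neighbouring cell binds a Notch receptor, the intracellular part of the receptor is released, joins the DNA-binding protein RBPJ in the nucleus and switches on Hes and Hey genes. In neural progenitors HES1 and HES5 repress proneural genes and so delay neuronal differentiation, whereas HES6 opposes HES1.

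The sequences below were read from the reference genome (GRCm38, the build of the deposited lists) around summits of these genes, to show where an exact match to the RBPJ consensus GTGGGAA lies. Capitals mark that match on either strand and, where present, a CACGTG or CACGCG site (either strand), which HES and HEY proteins can bind. Each run reads 5′ to 3′ on the strand of its gene. For Hes5, 30 bases around each of the matches in the promoter are given, from the RefSeq promoter sequence (GRCm38.p6), followed by the 201 bases centred on each of the 4 summits further upstream. For Hes1, Hey2 and Heyl, the run is centred on the strongest-read region that held a match outside exons, and a region listed only in the deletion cells is added for Heyl.
Hes1, 133 bp upstream, shared, chr16:30065107-30065307, + strand: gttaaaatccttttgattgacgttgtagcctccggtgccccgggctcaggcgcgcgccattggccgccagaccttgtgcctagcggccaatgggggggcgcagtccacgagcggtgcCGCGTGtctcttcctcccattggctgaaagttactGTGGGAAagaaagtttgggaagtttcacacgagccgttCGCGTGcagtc
Hes5 promoter, match from 226 bp upstream, chr4:154960686-154960715, + strand: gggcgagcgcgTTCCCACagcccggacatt
Hes5 promoter, match from 83 bp upstream, chr4:154960829-154960858, + strand: ggccgccgagtGTGGGAAcggccgcggcgc
Hes5, 14374 bp upstream, shared, chr4:154946449-154946649, + strand: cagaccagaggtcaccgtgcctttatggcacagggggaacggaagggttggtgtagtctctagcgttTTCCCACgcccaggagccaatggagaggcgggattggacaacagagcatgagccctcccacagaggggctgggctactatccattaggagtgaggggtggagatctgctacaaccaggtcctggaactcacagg
Hes5, 12173 bp upstream, parent-only, chr4:154948650-154948850, + strand: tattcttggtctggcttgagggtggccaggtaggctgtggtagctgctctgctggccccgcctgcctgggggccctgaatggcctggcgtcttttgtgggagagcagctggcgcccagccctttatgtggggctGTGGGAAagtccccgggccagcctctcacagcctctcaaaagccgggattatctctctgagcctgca
Hes5, 8069 bp upstream, parent-only, chr4:154952754-154952954, + strand: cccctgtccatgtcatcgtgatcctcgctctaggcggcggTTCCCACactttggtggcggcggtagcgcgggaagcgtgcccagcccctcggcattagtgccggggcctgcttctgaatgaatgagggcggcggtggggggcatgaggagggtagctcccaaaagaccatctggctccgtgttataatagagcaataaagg
Hes5, 2484 bp upstream, parent-only, chr4:154958339-154958539, + strand: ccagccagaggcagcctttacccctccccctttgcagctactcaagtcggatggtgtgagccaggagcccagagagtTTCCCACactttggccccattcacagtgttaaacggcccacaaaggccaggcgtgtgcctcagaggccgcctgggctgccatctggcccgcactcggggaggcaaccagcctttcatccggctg
Hey2, 154 bp upstream, shared, chr10:30842855-30843055, - strand: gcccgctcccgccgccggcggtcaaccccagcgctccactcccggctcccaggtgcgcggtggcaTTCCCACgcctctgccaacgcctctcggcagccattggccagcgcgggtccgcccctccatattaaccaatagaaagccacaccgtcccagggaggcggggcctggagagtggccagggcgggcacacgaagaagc
Heyl, 5642 bp upstream, shared, chr4:123227814-123228014, + strand: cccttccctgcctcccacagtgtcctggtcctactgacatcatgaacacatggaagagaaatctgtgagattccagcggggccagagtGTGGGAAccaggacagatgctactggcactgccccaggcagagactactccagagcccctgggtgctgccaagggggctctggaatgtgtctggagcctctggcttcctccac
Heyl, 6144 bp downstream, deletion-only, chr4:123239600-123239800, + strand: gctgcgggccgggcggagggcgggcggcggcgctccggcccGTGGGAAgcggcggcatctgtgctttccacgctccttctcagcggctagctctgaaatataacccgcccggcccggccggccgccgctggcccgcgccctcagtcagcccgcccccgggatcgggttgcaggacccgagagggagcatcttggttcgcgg

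Values at a region are given as a level, which is the number of reads at its highest summit divided by the genome-wide mean background of its list. A level of 100 thus means 100 times the average depth, and it allows for the difference in sequencing depth between the lists. Of the 57 regions, 22 were in the parent list only (38.6%; Wilson 95% interval, 27.1-51.6), where 27.9% of all 88970 regions within 50 kb of a protein-coding TSS were parent-only. The deletion list alone held 12 of them (21.1%; 12.5-33.3), where 38.6% of all regions were deletion-only. Both lists held 23 (40.4%), against 33.6% of all regions. These intervals cover counting error only, and regions of 1 gene are not independent of each other. By these counts the gene regions leaned to the parent list, whereas the regions at large, taken from lists of unequal length, leaned to the deletion list. The interval of the parent-only share includes the 27.9% of all regions. With the deletion list shortened to the length of the parent list, the regions at large leaned to the parent list too, with 37.7% parent-only and 30.6% deletion-only. Parent-only regions of these genes had a median level of 19.6, and deletion-only regions had levels from 6.66 to 93.1 with a median of 26.5. The corresponding medians over all regions were 12.8 and 15.5. Fold enrichment over the local background differed the other way, with medians of 3.80 for the parent-only and 6.39 for the deletion-only regions of these genes, against 7.48 and 9.10 over all.

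**Figure D1:**
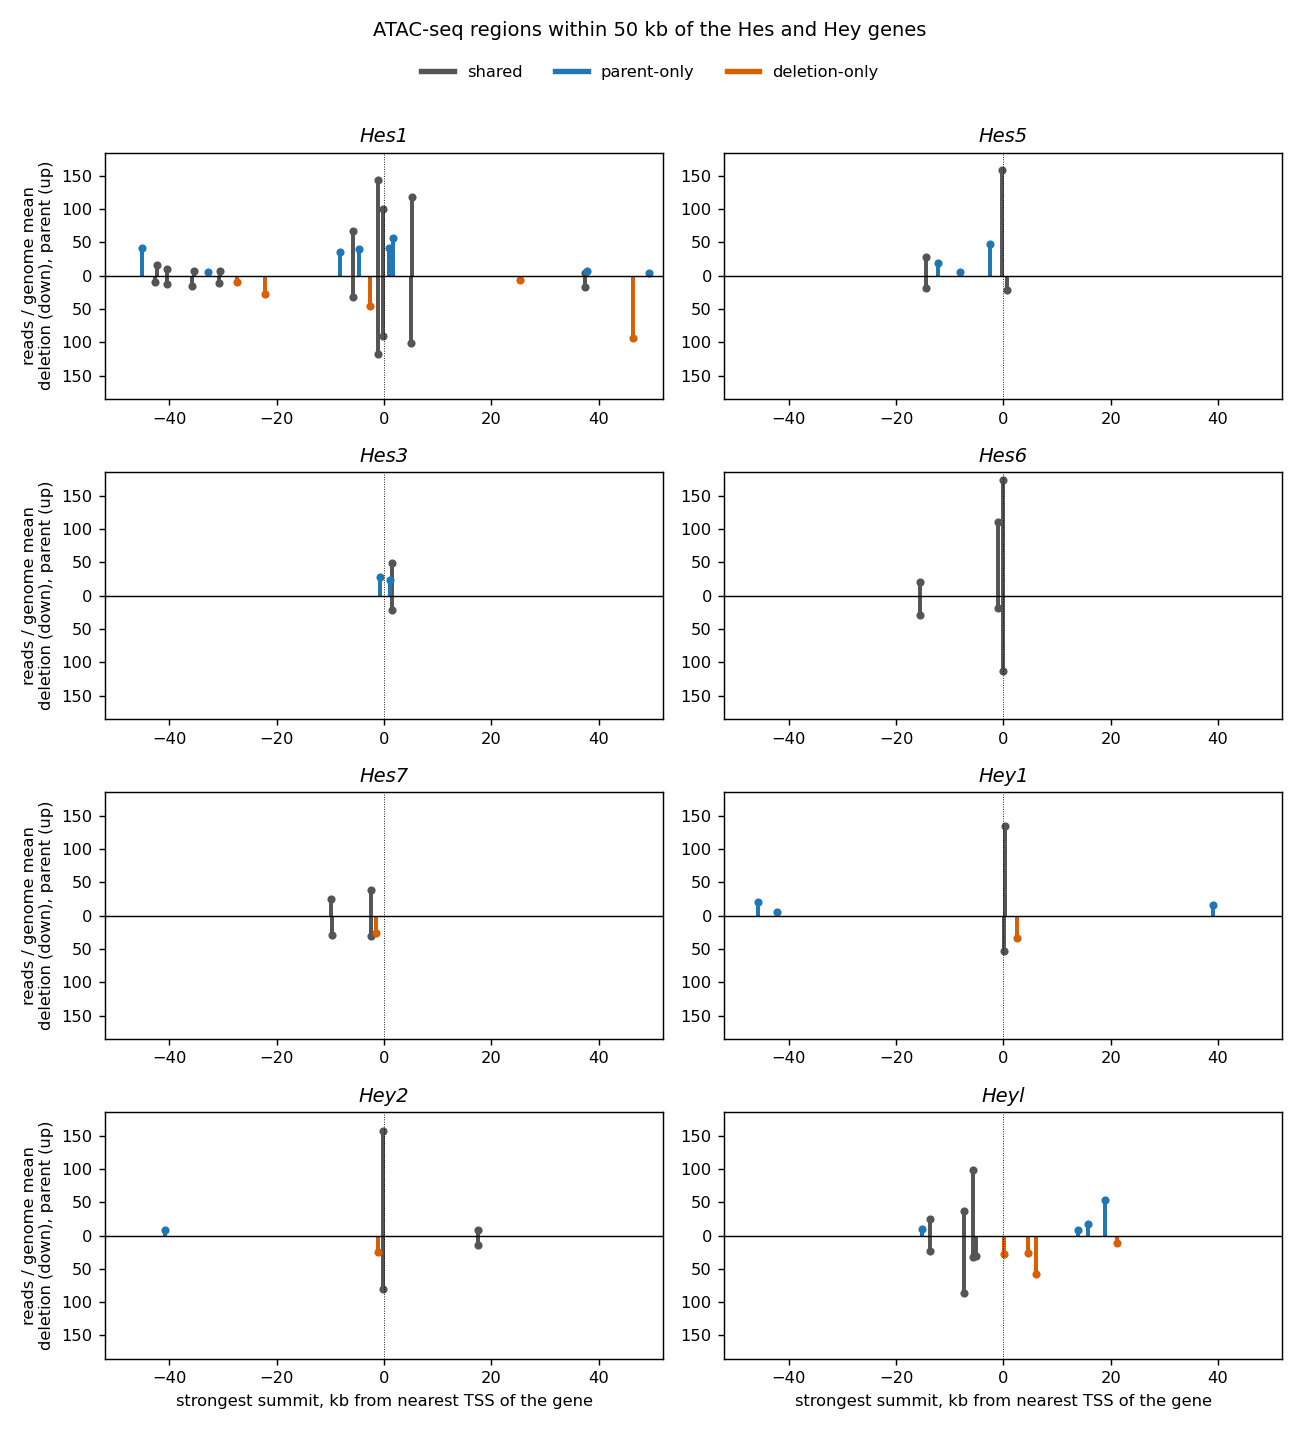
Regions at each gene by the distance of the strongest summit from the nearest TSS of the gene (x axis, kb, with upstream to the left) and their level (y axis, reads divided by the genome-wide mean), with parent values drawn upward and deletion values downward. Grey bars are regions of both lists, blue bars parent-only and orange bars deletion-only. For Hey1, 3 of the 4 parent-only regions are drawn. The 3 parent-only regions of Hes5 stand upstream of its promoter, and the tallest deletion-only bar, 93.1, stands 46449 bp downstream of the Hes1 TSS.

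Hes1 (chr16:30064384-30067796, + strand) encodes the oscillating repressor that keeps neural progenitors undifferentiated. Its promoter was open in both genotypes. The summit 133 bp upstream of the TSS had 3884 reads in the parent list, a level of 100.0, and the matching summit 113 bp upstream had 1774 reads in the deletion list, a level of 90.2. A taller region 1212 bp upstream, close to the annotated 5′ end of a longer Hes1 transcript, had levels of 143.5 and 117.2. Another, 5206 bp downstream of the TSS and beyond the gene, had levels of 118.1 and 100.5. The largest change among these 3 regions was 1.22-fold. Other regions among and near them did differ between the lists. Parent-only regions lay 4646 bp upstream (level 40.0) and within the gene, and a deletion-only region lay 2561 bp upstream (level 45.4).

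Hes1 had 22 regions in all, a number reached by 1.21% of the 17616 genes with a region. The parent list alone held 8, the deletion list alone 5 and both lists 9. No other gene had that same combination of counts, but how often genes with so many regions share one was not examined. The parent-only region with the highest fold enrichment over local background, 10.6, lay 45083 bp upstream in an exon of the non-coding gene 4632428C04Rik and had a level of 41.0. A further pair of parent-only regions lay within the gene, in an intron 956 bp and in the coding exon 1765 bp from the TSS, with levels of 42.3 and 56.9. Their fold enrichments were only 1.52 and 2.05, among the lowest in the parent list. The local background there was 1079 and 1076 reads, far above the genome-wide mean.

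Deletion-only regions of Hes1 included the strongest deletion-only region of the 8 genes. The region 46449 bp downstream had 1830 reads, a level of 93.1 and a fold enrichment of 20.1, which placed it in the top 11.7% of the deletion list. The region 22265 bp upstream had 548 reads, a level of 27.9 and a fold enrichment of 19.5. Of the regions in both lists, the one 37397 bp downstream had a level of 4.51 in the parent and 17.0 in the deletion list, and the one 35507 bp upstream 6.51 and 15.1. The region 5863 bp upstream went the other way, from 67.5 to 32.5. Accessibility at Hes1 therefore differed in both directions at regions near and far, while the levels at the tallest promoter summit were close.

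Hes5 (chr4:154960923-154962371, + strand), which acts beside Hes1 to maintain progenitors, had the largest promoter difference among these genes. The parent list had 6151 reads at a summit 209 bp upstream of the TSS, a level of 158.4, higher than at all but 9.32% of genes with a promoter region. The deletion list had 413 reads at its tallest summit, 738 bp downstream of the TSS in the coding exon, a level of 21.0. In the deletion list the summit nearest to the TSS, 15 bp upstream, had 261 reads, a level of 13.3. The promoter level was thus 7.54-fold lower in the deletion list, and the tallest point lay inside the gene rather than upstream of it.

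Of the 5 regions of Hes5, 3 were parent-only, all upstream of the promoter, and none was deletion-only. The region 2484 bp upstream had 1867 reads and a level of 48.1, the region 12173 bp upstream 742 reads and a level of 19.1, and the region 8069 bp upstream 232 reads and a level of 5.97. The fourth upstream region, 14374 bp from the TSS, was in both lists, with levels of 27.9 and 17.9. Its fold enrichment was higher in the deletion list, 8.70 against 7.01, and it was the strongest Hes5 region by that measure there, whereas the promoter had the highest fold enrichment, 7.49, in the parent list. The 73 other genes with 3 parent-only, 0 deletion-only and 2 shared regions show that this count alone was not rare.

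Hes3 (chr4:152285972-152291662, − strand), a family member of early neural progenitors and of the isthmus between midbrain and hindbrain, had 3 regions in the parent list and 1 in the deletion list. The region present in both lay in a coding exon 1482 bp from the nearer TSS and had levels of 49.5 and 21.7. The parent-only region in the intron, 1107 bp from a TSS, had a level of 24.2 and a fold enrichment of 4.55. The parent-only promoter region, 828 bp upstream, had 1105 reads and a level of 28.4. It was listed for the deletion cells in the longer optimal list, where the promoter level of Hes3 was lower than in the parent by 1.68-fold.

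Hes6 (chr1:91411483-91414038, − strand), which promotes neuronal differentiation, had 3 regions, and every one was in both lists. The promoter summit 98 bp upstream had 6739 reads and a level of 173.5 in the parent list, the tallest of any region of these genes. In the deletion list it had 2214 reads and a level of 112.6. The region 1055 bp upstream, which overlaps the 5′ end of the annotated gene, had levels of 110.5 and 19.0, 5.81-fold lower in the deletion list. Only 1.76% of the 29885 shared regions had a lower ratio. The third region, 15597 bp upstream in an intron of the clock gene Per2, had levels of 19.8 and 29.0 and the highest fold enrichment of Hes6 in both lists, 17.7 and 23.8.

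Hes7 (chr11:69120404-69124055, + strand), the oscillator of the segmentation clock in presomitic mesoderm, had no region within 1 kb of its TSS in either list. Of its 3 regions, the one 9824 bp upstream was in both lists with levels of 24.8 and 29.8, and it spans the annotated tRNA genes n-TTagt5 (chr11:69110465-69110538) and n-TScga3 (chr11:69110919-69111000). Its fold enrichments, 8.17 and 6.49, were the highest of the gene. The deletion-only region, 1529 bp upstream with 509 reads, a level of 25.9 and a fold enrichment of 2.70, holds the tRNA gene n-TGgcc5 (chr11:69118794-69118864). It overlapped a region listed for the parent cells in the longer optimal list. The region 2420 bp upstream, between these 2, had levels of 37.8 and 30.4. These regions were assigned to Hes7 by distance, although tRNA genes lay closer to 2 of them.

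Hey1 (chr3:8663359-8667256, − strand), a Notch effector that holds neural precursors back from differentiating, had 4 parent-only regions, 1 deletion-only region and 1 in both lists. The promoter region, whose summit lies in the 5′ untranslated region 205 bp downstream of the TSS, had 5204 reads and a level of 134.0 in the parent list. The deletion list had 1032 reads there and a level of 52.5, which is 2.55-fold lower. Of the parent-only regions, the one 39003 bp downstream in an intron of Gm32496 had a level of 16.0 and a fold enrichment of 12.9, and those 42221 and 45666 bp upstream had levels of 5.51 and 20.0. The deletion-only region, in a coding exon 2551 bp from the TSS, had 659 reads and a level of 33.5, and the fold enrichment of the promoter, 9.43, was the highest of Hey1 in that list.

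Hey2 (chr10:30832359-30842801, − strand), best known in arterial and heart development, had its promoter summit 154 bp upstream. It had 6089 reads and a level of 156.8 in the parent list and 1588 reads and a level of 80.8 in the deletion list. With fold enrichments of 20.3 and 15.2 it was the strongest region of the gene in both lists. A deletion-only region lay 1119 bp upstream (level 24.2, fold enrichment 4.58), and a parent-only region 40824 bp upstream (level 8.62, fold enrichment 8.43). The region 17564 bp downstream had levels of 9.06 and 13.6.

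Heyl (chr4:123233556-123249875, + strand), a Notch target of vascular and neural cells, had 11 regions, of which 4 were parent-only, 4 deletion-only and 3 in both lists. No region overlapped its TSS in the parent list, whereas the deletion list had one with a summit 192 bp downstream, with 532 reads, a level of 27.1 and a fold enrichment of 8.82. The deletion-only regions in the introns, 4566 and 6144 bp from the TSS, had levels of 25.8 and 57.3. The latter had the highest fold enrichment of the deletion-only regions of Heyl, 12.9. The parent-only region with the highest fold enrichment, 11.5, lay 18867 bp downstream, beyond the gene, with a level of 54.2.

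The neighbouring upstream regions of Heyl differed in opposite directions. The region 5642 bp upstream had levels of 98.9 in the parent and 32.1 in the deletion list, whereas the region 7315 bp upstream had 37.4 and 86.0. The third, 13624 bp upstream, had levels of 25.0 and 23.4 and the highest fold enrichment of Heyl in the deletion list, 18.9. Of the 4 parent-only regions, 3 lay at or beyond the 3′ end of the gene, and 3 of the 4 deletion-only regions lay in its first 6144 bp.

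**Figure D2:**
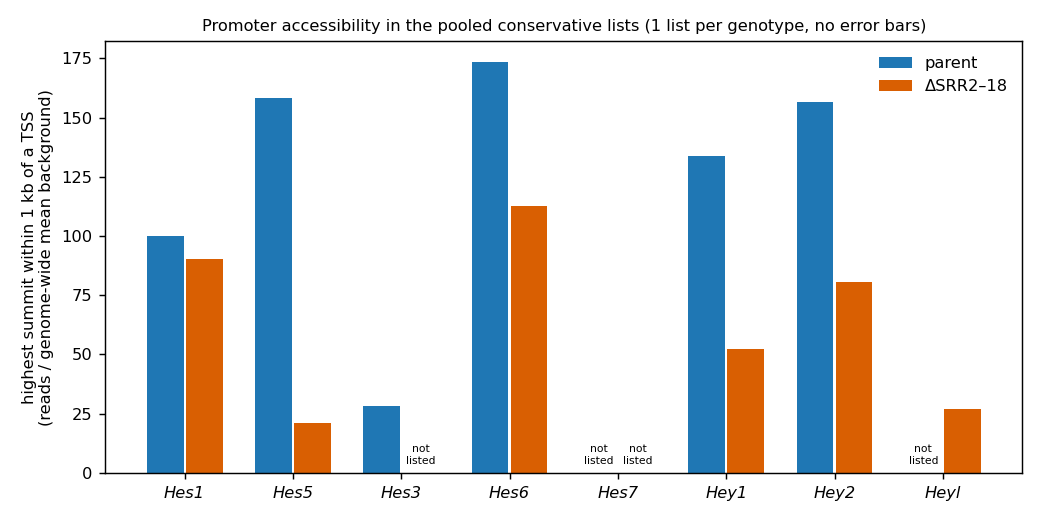
Highest level within 1 kb of a TSS of each gene (y axis, reads divided by the genome-wide mean background) in the parent list (blue) and the deletion list (orange), each pooled over 3 cultures. Hes5 stands at 158.4 and 21.0, while Hes1 stands at 100.0 and 90.2. The words mark genes with no promoter region in that list.

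Over the 12340 genes with a promoter region in both lists, the level in the deletion list was lower than in the parent list by 1.39-fold at the median (log2 ratio, −0.47). Changes of the promoters were therefore also read against this median. The log2 ratio of Hes5 was −2.91, or −2.44 relative to the median, and only 0.292% of genes had a lower one. Of the 5 promoters listed in both genotypes within 1 kb of the TSSs used, only that of Hes5 was at least 2-fold lower than the median. A change of that size was seen in 4.06% of genes. None of the 5 was at least 2-fold higher, where 6.7% of genes were. The log2 ratios of Hey1 and Hey2, −1.35 and −0.96, left 5.29% and 14.9% of genes below them. Hes6, at −0.62, and Hes1, at −0.15, lay near and above the median, with 35.7% and 78.6% of genes below them. The Hes6 region 1055 bp upstream lay just beyond the 1 kb limit and was not counted as a promoter here. Its summit lies in another RefSeq promoter of Hes6 (chr1:91414039-91414288), and its log2 ratio was −2.54.

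The size of these changes depended on the measure. Fold enrichment compares a summit with the reads around it, and this local background itself differed between the lists. At the Hes5 promoter it was 820.3 reads in the parent and 99.8 reads in the deletion list, or 21.1 and 5.08 times the genome-wide mean of each list, at summits that lie 947 bp apart. By fold enrichment the log2 ratio of Hes5 was −0.87, that of Hey2 −0.42 and that of Hey1 −0.019, while Hes1 and Hes6 changed sign to 0.083 and 0.51. The lower value at Hes5 was thus seen by both measures but was much smaller by fold enrichment.

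**Figure D3:**
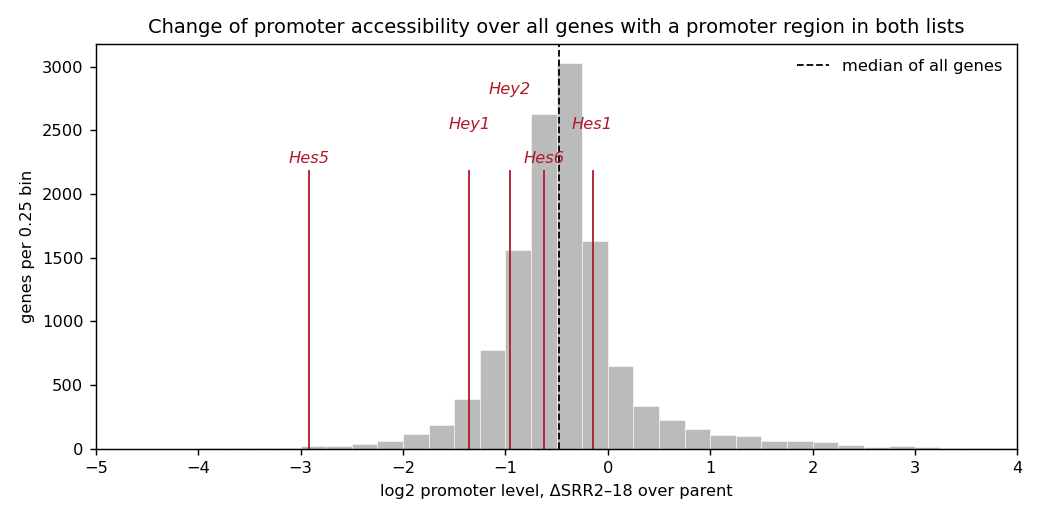
Distribution over genes of the log2 ratio of promoter level, deletion over parent (x axis), as the number of genes per bin (y axis). The dashed line is the median, −0.47, and red lines mark the 5 promoters listed in both genotypes. Hes5 lies at −2.91 in the far left tail.

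The 23 regions of these genes in both lists changed by a median log2 ratio of −0.29, against −0.30 over all shared regions. They did not shift as a group, and the individual regions spread widely around that median. Ranked by fold enrichment within its own list, the parent interval stood higher in 13 of the 23, whereas 59.0% of all shared regions ranked higher in the parent. The largest differences downward were at Hes5 (209 bp upstream), Hes6 (1055 bp upstream) and Heyl (5642 bp upstream). Of all shared regions, 1.04%, 1.76% and 5.87% had a lower ratio. The largest upward were at Hes1 (37397 bp downstream, log2 ratio 1.92, and 35507 bp upstream, 1.21) and Heyl (7315 bp upstream, 1.20). For these, 94.6%, 89.5% and 89.5% of all shared regions had a lower ratio. Both Hes1 regions had low parent levels, 4.51 and 6.51.

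**Figure D4:**
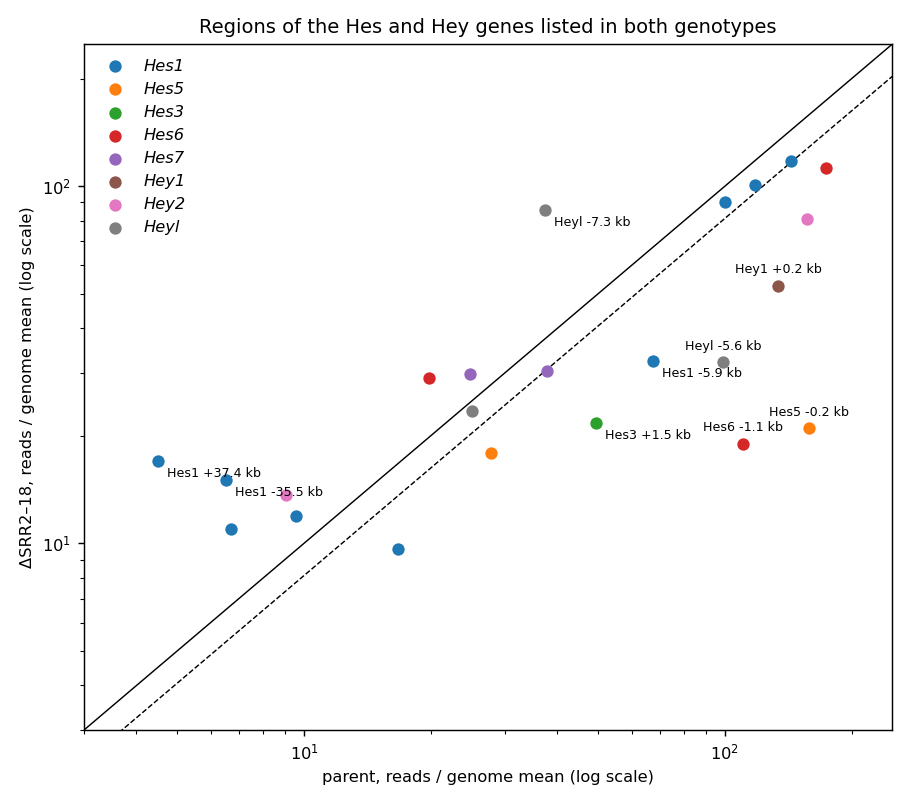
Level of the 23 regions in both lists, parent (x axis, log scale) against deletion (y axis, log scale), coloured by gene. The solid line marks equal levels and the dashed line the median of all shared regions. Regions that changed by at least 2-fold are named with their distance from the TSS, and Hes5 and Hes6 lie farthest below the lines.

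The RBPJ consensus was found within 100 bp of the strongest summit in 13 of the 45 parent regions (28.9%; Wilson 95% interval, 17.7-43.4) and in 8 of the 36 deletion regions (22.2%; 11.7-38.1). Among all regions within 50 kb of a protein-coding TSS these shares were 5.24% and 4.93%. At Hes5 every region held it, 5 of 5 in the parent list and 2 of 2 in the deletion list. The 4 upstream parent windows are printed above, whereas the match of the deletion promoter region lies near its summit in the coding exon and is not among the printed runs. The RefSeq promoter of Hes5 holds it at 2 positions, starting 226 and 83 bp before the start, and 5.42% of 32851 promoters of that table hold it in the same 250 bases. Without Hes5, 8 of 40 parent regions and 6 of 34 deletion regions held it. By class, matches stood in 5 of 22 parent-only, 8 of 23 shared (parent intervals) and 3 of 12 deletion-only regions. A match is a run of letters and not a measured binding event. No Hes3 or Hes6 region held one.

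**Figure D5:**
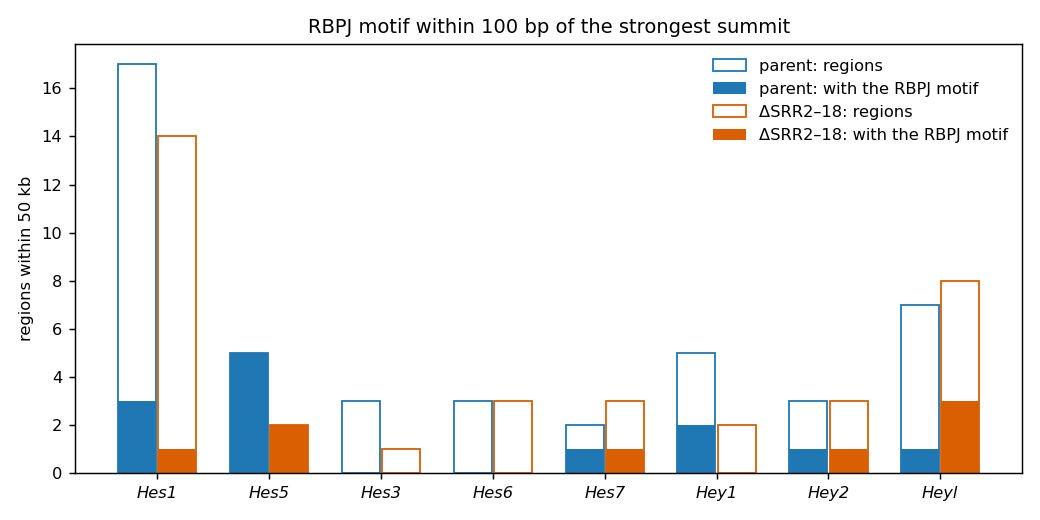
Open bars give the number of regions of each gene (y axis) in the parent (blue) and deletion (orange) lists. Filled bars give the number whose 201-base window around the strongest summit held GTGGGAA or its reverse complement. For Hes5 the filled bars reach the top of the open ones, at 5 and 2, and for Hes3 and Hes6 there is none.

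Other motifs did not stand out in the same way. A CACGTG or CACGCG site was found in 5 of 45 parent regions and 4 of 36 deletion regions (11.1% each), against 9.03% and 8.19% of all regions. The Hes1 promoter window printed above holds such a site at 2 positions beside its RBPJ match. The N-box CACNAG was found in 12 of 45 and 14 of 36 regions, against 39.8% and 37.6% of all. The E-box CAGCTG, which many proneural basic helix-loop-helix factors bind, was in 14 of 45 and 8 of 36, against 23.9% and 16.9%. SOX motifs (ACAATG or ACAAAG) were in 10 of 45 and 5 of 36, against 27.0% and 21.2%. Windows around nearby summits in the 2 lists overlap, so their shares are not independent.

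The AP-1 motif TGAGTCA marked deletion-only regions at large, in 42.6% of them against 2.40% of parent-only regions. At the Hes and Hey genes it was in 2 of 12 deletion-only regions (16.7%; 4.70-44.8), 1 each at Hes1 sites 2561 bp upstream and 25316 bp downstream, and in 0 of 22 parent-only regions. In the shared regions of Hes1, 3 deletion intervals held it, 42726, 40391 and 35705 bp upstream, and so did the parent interval 40425 bp upstream. The only other match was in the deletion interval of Heyl 7425 bp upstream.

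Other genes of the Notch pathway, from receptors and ligands to co-repressors and related repressor genes, were examined beside Hes and Hey. Of 356 regions at 41 such genes, 109 were parent-only (30.6%, against 27.9% of all regions), 122 deletion-only (34.3%, against 38.6%) and 125 in both lists. The promoter was listed in both genotypes for 38 genes, of which 4 (10.5%) were at least 2-fold lower and 4 (10.5%) at least 2-fold higher than the median, against 4.06% and 6.7% of all genes. The lower ones were the ligand genes Dll1 (70.9 to 22.0) and Dll3 (75.2 to 17.5), the coactivator gene Maml2 (70.4 to 20.6) and the Fringe glycosyltransferase gene Mfng (72.7 to 4.83). The higher ones were Numb, a Notch inhibitor (195.5 to 324.3), the Deltex genes Dtx1 (5.82 to 13.4) and Dtx3 (31.8 to 47.0), and Helt, a related repressor gene (6.13 to 10.5). The 4 receptor genes had 18 parent-only and 8 deletion-only of 45 regions (40.0% and 17.8%, against 27.9% and 38.6% of all), of which Notch1 had 12 and 1. The 5 ligand genes had 11 and 4 of 30 (36.7% and 13.3%), and the 3 Fringe genes 6 and 2 of 16 (37.5% and 12.5%). The 9 modulator genes had 22 and 40 of 80 (27.5% and 50.0%), of which Fbxw7 had 2 and 13 and Dlk1 0 and 12. The 7 genes of receptor processing had 4 and 8 of 20 (20.0% and 40.0%), and the 4 co-repressor genes 9 and 14 of 41 (22.0% and 34.1%). The 5 genes of the nuclear complex had 31 and 35 of 97 (32.0% and 36.1%), of which Maml2 had 19 and 5. The 4 related repressor genes had 8 and 11 of 27 (29.6% and 40.7%). Rbpj itself had 2 parent-only and 16 deletion-only regions, while its promoter levels were 145.4 and 111.0. The Notch targets Nrarp (93.5 to 36.3) and Notch1 (133.5 to 62.5) had promoter log2 ratios of −1.36 and −1.10, within 2-fold of the median change.

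At Hes1 and Hey1, regions lay on both sides of the 50 kb limit. In the parent list the Hes1 region farthest inside it lay at 49301 bp, with a fold enrichment of 3.74, and the first outside it at 51106 bp, with 4.89. In the deletion list these were at 46449 bp, with 20.1, and at 55545 bp, with 4.84. Hey1 had regions just outside the limit in both lists, at 50407 bp in the parent and 50389 bp in the deletion list, with fold enrichments of 15.6 and 21.2.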

How the data were processed

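ATAC-seq peaks of 3 parent and 3 deletion cultures (30000 cells, 50 to 60 M reads and 11 to 14 PCR cycles each, per the labels) were analysed. The authors processed reads with the ENCODE ATAC-seq pipeline in mm10 (a build that the submitters' processing notes also name, beside deepTools), called peaks with MACS2 and pooled the cultures of a genotype by IDR into a conservative and an optimal list. The deposited columns give an IDR score for a peak, its fold over the local background, its −log10 p and −log10 q and the place of its summit. These values have no replicate error, and reads of the Cast allele that differ from the reference may map less often.

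The conservative lists were used, with the GENCODE M21 basic annotation for TSSs and features. Each interval was placed by its summit of highest fold enrichment. Reads and local background at a summit were solved from fold enrichment and −log10 p, which gave whole numbers (within 0.05) for all but 1 of 134705 parent peaks. They are pileup heights, not distinct fragments. The lowest background of a list was taken as its genome-wide mean (ratio of the lists, 1.98). Depth per culture was not recovered. Regions sharing 1 bp were counted as the same region. A promoter region had a summit within 1 kb of a TSS. The limit of 2-fold around the median promoter was chosen after the data were seen. Motifs were exact matches on both strands of GRCm38.p6, and 4 of 8 genes had a promoter in the RefSeq table used. The calculations were tested on simulated data, where 100% of 5000 read numbers were recovered. Python 3.11.15, NumPy 2.4.6, pandas 2.3.3, SciPy 1.17.1, statsmodels 0.14.6 and matplotlib 3.10.9 were used.

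The genes, gene lists and motifs were chosen with earlier results of these data known. Named regions were those within 1 kb of a TSS of a member gene, the one with the highest fold enrichment per gene and list, and the parent-only and deletion-only one with the highest fold enrichment. For 1 region of Hey1, counted in every total, the sequence and values are not reported here. Regions named for a large change in level between the lists, or for their place, were chosen after their values were seen. Alternatives tried were the optimal lists, an IDR score of at least 830, reciprocal overlap, absence judged on both kinds of list, lists of equal length, parent p-values rescaled to the deletion depth, 10 kb, gene 5′ ends, other ranking measures, a 50 bp motif window and, added after the data were seen, the optimal lists and fold enrichment for promoter changes.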

Additional observations from a re-analysis of the deposited data

How the results depend on the processing

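The 22 parent-only, 12 deletion-only and 23 shared regions stayed within 1.5-fold under 6 of the 9 alternatives. Of these, 1 only rescaled the parent p-values to the deletion depth and held both lists to −log10 p of at least 20. It called no peaks anew, so the effect of depth on these counts was not measured. When the deletion list was shortened to the 82885 regions of highest fold enrichment, parent-only regions numbered 32, deletion-only 5 and shared 13 (all regions, 37.7%, 30.6% and 31.7%). With 25000 regions of each list the counts were 2, 4 and 1 (all regions, 41.4%, 32.9% and 25.7%), so that the lean to the parent list was lost. Fold enrichment was low at the broadly open Hes1 locus, and whether this set the loss was not tested. Within 10 kb, a smaller set by construction, the counts were 8, 7 and 14 (all regions, 21.6%, 30.6% and 47.9%). The rank count, 13 of 23 (59.0% of all shared regions), was 11 by −log10 p (56.8% of all) and 12 by summit reads (54.9% of all). With a 50 bp motif window, a smaller window by construction, the share of member regions fell from 25.9% to 14.8% for RBPJ (2.52% of all regions). It fell from 32.1% to 22.2% for the N-box (24.0% of all regions in the 50 bp window). For SOX it fell from 18.5% to 11.1% (12.6% of all) and for CAGCTG from 27.2% to 17.3% (12.1% of all). By fold enrichment the promoter log2 ratios of Hes1 and Hes6 reversed, to 0.083 and 0.51, and that of Hes5 was −0.87, with 4.51% of genes below it. No paired analysis was possible because the cultures were pooled into 1 list per genotype, and for the same reason no culture could be left out.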

Other observations

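In all, 5 regions of these genes stood in an optimal list and overlapped no conservative region of either genotype. For Hes5, the parent optimal list held one 2194 bp upstream, with 871 reads, a level of 22.4 and a fold enrichment of 1.68. The others were low. The parent optimal list held one each at Hes6 (10483 bp upstream, level 5.28), Hes1 (33977 bp downstream, level 3.76) and Hey1 (35533 bp downstream, level 5.25), and the deletion optimal list held one at Hes1 (31127 bp upstream, level 8.14).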
